A study of Homo sapiens with 6 samples.

Results

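The 50 nt on each side of the start codon, together with the codon itself, were examined for eIF4B cross-links at single-nucleotide resolution. Each annotated protein-coding transcript of the MANE Select set (GENCODE release 44, 1 transcript per gene) gave 1 window of up to 103 nt, read in transcript coordinates on the same strand. Histone genes were left out, so 18966 of 19061 transcripts were used. In DoHH-2 the windows held 53518 of the 1179243 cross-linked positions and 100744 of the 2033156 counts. In GM01953 they held 6222 of 78474 positions and 11012 of 167197 counts.

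The data came from individual-nucleotide UV cross-linking and immunoprecipitation (iCLIP) of endogenous eIF4B, with 4 DoHH-2 and 2 GM01953 replicates. DoHH-2 is a line of diffuse large B-cell lymphoma (DLBCL), and GM01953 is a B-cell line used as control. Both were cross-linked with 150 mJ/cm2 of UVC, treated with RNase I and immunoprecipitated with an anti-eIF4B antibody, with no other treatment. Each condition was thus 1 cell line, and the deposited tables pool its replicates, so that every value below is 1 per line, no test between the lines was possible, and all intervals (95%) cover counting error within a table only. A read count here is the number of cDNAs that place a cross-link at 1 nucleotide.

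Both tables held counts on mRNAs of B cells. For the antigen-presentation chaperone CD74 there were 945 mRNA counts in the DoHH-2 table and 333 in the other, and for the B-cell transcription factor PAX5 there were 358 and 43. The germinal centre genes BCL6 and MME had 327 and 217 counts in DoHH-2 but 7 and 2 in GM01953. EBI3 and FCER2, known from virus-transformed B cells, had 0 counts in DoHH-2 and 18 each in GM01953. CD3D, CD3E and CD3G of T cells, and the 4 myeloid and 2 erythroid markers examined, were at 0 in both. A cross-link count depends on mRNA abundance as well as on binding, so a high window count says only how much of the signal a gene carries, and enrichment is read from the share of a gene's own mRNA counts.

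Translation of most mRNAs begins when a small ribosomal subunit, loaded near the cap, scans the 5′ UTR and stops at the first AUG in a favourable context. eIF4B stimulates the RNA helicase eIF4A, which unwinds the 5′ UTR, and binds both RNA and the small subunit. In iCLIP, UV light joins protein to RNA at zero distance and reverse transcription stops at the joined base, so that the site is read to the nucleotide; UV preferentially joins certain bases, uridine above all.

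In the text below, offset 1 is the A of the start codon, -1 the base before it, and no offset 0 exists. The sequences at the highest position of leading windows are given first, since they show where the main single sites within the window lie relative to the codon. The cross-linked base is in capitals, and coordinates are GRCh38.

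MIF, offset -10, chr22:23894450-23894479, plus strand, exon 1 of 3, with the start codon near its 3′ end: cgggtctcctggtccTtctgccatcatgcc
PGK1, offset -40, chrX:78104286-78104315, plus strand, 5′ UTR in exon 1 of 11: gtcggctccctcgttGaccgaatcaccgac
TUBB, offset -50, chr6:30720442-30720471, plus strand, 5′ UTR in exon 1 of 4: aaaaaattacttattTtcttgccccataca
RPS6, offset -39, chr9:19380207-19380236, minus strand, 5′ UTR in exon 1 of 6 and the first bases of the annotated mRNA: ctCttttccgtggcgcctcggaggcgttca
RPS23, offset 41, chr5:82277802-82277831, minus strand, coding sequence: ctgctaggaagctccGtagtcaccgacgag

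A further set is given for the base before the start codon, the offset with the most counts. Here the capitals mark that base and the codon.

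EIF3F, chr11:7987338-7987367, plus strand, 26 counts at -1 in DoHH-2 and 0 in GM01953: ttctttctcgacaaGATGgccacaccggcg
MIF, chr22:23894460-23894489, plus strand, 24 counts in DoHH-2 and 11 in GM01953: ggtccttctgccatCATGccgatgttcatc
MANF, chr3:51385328-51385357, plus strand, 21 and 0 counts: aggaggatgaggagGATGaggaggatgtgg
SRSF2, chr17:76737146-76737175, minus strand, 6 and 9 counts: ccgccactcagagcTATGagctacggccgc

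The windows held more counts than their length. They took 9.30% (9.25 to 9.36) of the 1083094 mRNA counts in DoHH-2. An even spread of each gene's counts along its mRNA would place 4.20% there, a 2.22-fold difference. In GM01953 the share was 12.7% (12.5 to 12.9) of 86598 counts against 4.54%, or 2.80-fold. Of the 7683 DoHH-2 genes with at least 20 mRNA counts, 5340 (69.5%) exceeded their even spread, the median gene by 1.81-fold, and 1053 had no window count. Of 999 such genes in GM01953, 610 (61.1%) did, with a median of 1.79-fold, and 296 had none. The signal was spread over many genes: 472 genes held 50% of the DoHH-2 window counts and 385 of those in GM01953, while the 10 highest held 5.05% and 8.90%.

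A position is called a site where the deposited false discovery rate (FDR) is below 0.05. Of the window positions, 26605 (49.7%) were sites in DoHH-2, beside a background of 21.5% of all positions and 29.5% of mRNA positions. In GM01953, 2747 (44.2%) were sites, beside 36.6% and 41.2%. Site calls were thus more frequent in the windows than among mRNA positions in DoHH-2, and close to the mRNA background in GM01953. Sites carried 70.9% and 63.97% of the window counts. Most window positions had a single count (70.7% and 61.4%), which sets how far any 1 position can be read.

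Whether the density was highest at the start codon depended on the transcripts compared. Over all transcripts that reach each offset, the 50 nt before the codon had 102 counts per nt and 1000 transcripts in DoHH-2, above the 81.3 at offsets -150 to -51, and 13.6 against 13.1 in GM01953. In genes with at least 20 mRNA counts the windows had 130 counts per kb in DoHH-2, above the rest of the 5′ UTR (80.9), the rest of the coding sequence (33.8), windows at the stop codon (74.7) and the 3′ UTR (21.9). Relative to each gene's even spread, however, the rest of the 5′ UTR was at 2.25-fold and the start window at 2.22-fold, and in GM01953 the order was 3.44-fold and 2.52-fold. The order turned where the 5′ UTR was long. In a fixed set of 4799 DoHH-2 transcripts with at least 150 nt of 5′ UTR, counts per nt fell along the mRNA in steps. Offsets -150 to -51 had 261 (258 to 264) counts per nt, -50 to -1 had 225 (220 to 229), 4 to 53 had 190 (187 to 194) and 54 to 153 had 162 (160 to 165). The corresponding values in 3845 GM01953 transcripts were 42.2, 31.1, 31.4 and 20.2, so that there both sides of the codon were at one level, under that farther upstream and over that farther downstream. The codon itself was lowest in GM01953 (17.7, 13.2 to 23.1) and lay between the flanking and distal coding stretches in DoHH-2 (173, 159 to 189), with an interval that reached both.

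**Figure D1:**
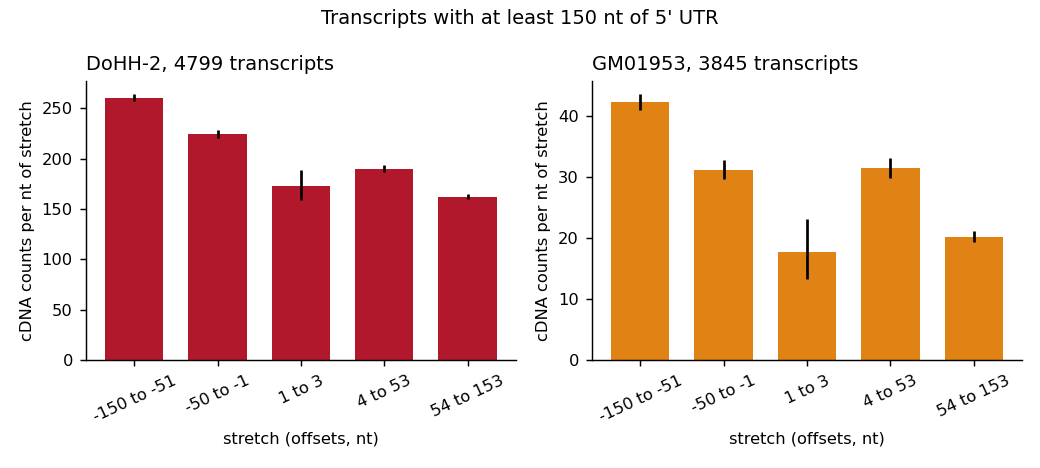
cDNA counts per nt (y axis) in 5 stretches around the start codon (x axis, offsets in nt) for transcripts with at least 150 nt of 5′ UTR, in DoHH-2 (left) and GM01953 (right). Bars are summed counts divided by stretch length with exact Poisson 95% intervals; the most upstream stretch is the highest in both lines (261 and 42.2 counts per nt).

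The window counts were divided about evenly by the codon. In DoHH-2, 49.1% (48.8 to 49.4) lay before it, 2.41% (2.32 to 2.51) on it and 48.5% (48.2 to 48.8) after it. In GM01953 the shares were 47.5% (46.6 to 48.5), 1.91% (1.67 to 2.18) and 50.6% (49.6 to 51.5). Because 3352 transcripts have under 50 nt of 5′ UTR, only 45.1% and 46.0% of an even spread within the windows would fall before the codon. In DoHH-2 the 10 nt before the codon held 11.6% of window counts and the 10 nt after it 11.2%, and the share decreased to 8.32% at offsets 44 to 53. As fewer transcripts reach the upstream offsets, the order was another relative to even spread, with 1.26-fold at -50 to -41, 1.13-fold at -10 to -1 and 1.08-fold at 4 to 13. GM01953 had its low stretch at offsets -30 to -21 (7.34%), and no steady decrease after the codon.

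At single-nucleotide resolution, 1 base stood above all others. The base before the start codon (-1) had 2287 counts (2194 to 2383) in DoHH-2, where the median offset had 960. It had 282 (250 to 317) in GM01953, where the median offset had 100. The next highest were 3, the G of the codon, in DoHH-2 (1495) and 10 in GM01953 (175). The lowest in both was 2, the U of the codon, with 368 (331 to 408) and 14 (7.65 to 23.5) counts. The A of the codon was also low, with 568 and 44 counts, as was offset -2 with 670 in DoHH-2. The -1 counts were not those of a few genes: they came from 1080 DoHH-2 transcripts, none of which gave over 1.14%, and from 147 GM01953 transcripts, the highest of which, MIF, gave 3.90%. The 2 profiles had a Pearson r of 0.777 and a Spearman rho of 0.660 over the 103 offsets, which is a description only, as both lines share the same transcripts and bases.

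The bases at cross-linked positions differed from those of the windows. A accounted for 7.58% of the DoHH-2 window counts but 19.5% of an even spread, C for 26.1% against 29.0%, G for 37.8% against 31.3% and U for 28.5% (28.2 to 28.8) against 20.2%. GM01953 was alike, with 7.16% A and 29.0% (28.2 to 29.9) U, against 19.4% and 19.8%. The base after the position differed further: it was U for 35.4% of DoHH-2 and 38.0% of GM01953 counts, and G for 15.7% and 9.99%, where G makes up 31.3% and 29.9% of an even spread. A low count at A, and at a base followed by G, is therefore found across the windows. The start codon begins with A, and its U is followed by G. The cause of the low counts on the codon was not tested.

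The preference also appeared among the start codons by the base before them. Where that base was G, as in EIF3F and MANF above, the DoHH-2 counts at -1 were 3.44-fold (3.24 to 3.66) those of a mean position of the window. They were 3.09-fold (2.72 to 3.49) at U, as in SRSF2, and 1.72-fold (1.61 to 1.84) at C, as in MIF. At A they were 0.742-fold (0.613 to 0.889). In GM01953 the values were 3.67 for G, 4.47 for U, 2.24 for C and 0.197 for A, the last from 3 counts. Transcripts with A before the codon, 17.1% of those with counts in DoHH-2, thus had no excess at -1 over a mean window position in either line. All A positions of the windows together were at 0.388-fold of their even spread in DoHH-2 and 0.370-fold in GM01953.

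To set the -1 peak beside the local sequence, the count per occurrence of each 5-base context (1 base before to 3 bases after the position) was learned on the same mRNAs outside the windows. It was then used to spread each gene's window counts over its window, so that ratios below are relative within windows. At -1 the 2.19-fold excess over even spread in DoHH-2 became 1.21-fold (1.17 to 1.27), and the 2.51-fold excess in GM01953 became 1.19-fold (1.05 to 1.33). At 2, the dip of 0.353-fold in DoHH-2 became 0.928-fold (0.836 to 1.03), and that of 0.125-fold in GM01953 became 0.583-fold (0.319 to 0.979). Most of the size of both features was thus present in the count expected from context. Over all offsets the SD of the log2 ratio decreased from 0.32 to 0.18 in DoHH-2 and from 0.53 to 0.33 in GM01953. In DoHH-2 the highest remaining ratio was at 3 (1.32-fold, 1.25 to 1.39). In GM01953 that offset was at 1.20-fold (1.01 to 1.40), and the highest ratio was at -2 (1.62-fold). Ratios over context declined in DoHH-2 from 1.09 at offsets 4 to 13 to 0.821 at 44 to 53, and stood at 1.19 at -50 to -41.

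A second comparison, chosen after the profile had been seen, set start codons beside AUG triplets elsewhere in the same mRNAs, each relative to the mean of the 20 nt on either side. The 5-base contexts at -1 and at 2 contain the AUG, so their expected counts were learned at such triplets too. The 2 comparisons thus share counts and are not independent at these offsets. The base before a start codon had 2.16-fold (2.07 to 2.25) the flanking count in DoHH-2. The base before an AUG elsewhere in the 5′ UTR had 2.12-fold (1.97 to 2.28), so that the intervals overlapped. In the coding sequence it was 1.86-fold (1.82 to 1.91) for in-frame and 1.92-fold (1.89 to 1.95) for out-of-frame triplets, and in the 3′ UTR 1.40-fold (1.37 to 1.43). In GM01953 the start codon (2.63-fold, 2.33 to 2.96) was near the 5′ UTR (2.58) and the out-of-frame coding triplets (2.82), with in-frame triplets at 2.30 and the 3′ UTR at 2.26. A peak before the AUG and a dip on its U were thus seen at AUG triplets in every part of the mRNA. On the U, the DoHH-2 ratio was 0.344 at start codons and between 0.342 and 0.446 elsewhere. On the G the start codon had 1.41-fold (1.34 to 1.48) the flanking count in DoHH-2, the 5′ UTR triplets 1.26-fold (1.14 to 1.38), the out-of-frame coding triplets 1.18-fold (1.16 to 1.21) and the in-frame ones 0.998-fold (0.965 to 1.03). In GM01953 the values on the G, in the same order, were 1.42 (1.20 to 1.66), 1.51 (1.14 to 1.96), 1.16 (1.07 to 1.27) and 1.35 (1.217 to 1.497). Among all 64 triplets outside the windows, AUG ranked 14th in DoHH-2 and 9th in GM01953 for counts at the base before it, and UCA ranked first, with 3.44-fold and 4.22-fold of a mean position.

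**Figure D2:**
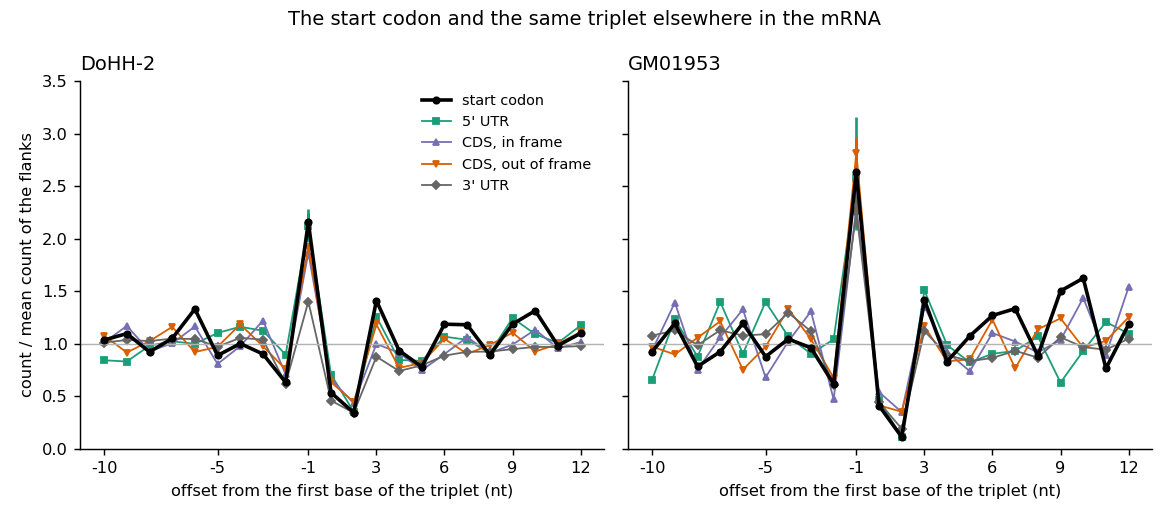
Count relative to the mean of the flanks (y axis) at offsets around the start codon and around the same triplet elsewhere in the mRNA (x axis, nt), in DoHH-2 (left) and GM01953 (right); vertical lines at -1 are 95% Poisson intervals. All 5 curves peak at the base before the triplet, with 2.16 at start codons and 2.12 in the 5′ UTR in DoHH-2.

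After the codon, counts differed between codon positions. Over the 16 codons at offsets 4 to 51, the first, the second and the third base held 37.0% (36.5 to 37.4), 28.5% and 34.6% of the DoHH-2 counts. In GM01953 they held 40.7% (39.4 to 42.0), 25.6% and 33.7%. The coding sequence outside the windows had 37.2%, 30.1% and 32.8% in DoHH-2 and 39.6%, 27.5% and 32.9% in GM01953, so the same order was present far from the start. The order rests on positions being counted from 0, as read from the strands. Counted from 1, the first base would hold 32.0% and 29.4%. The context expectation for the window was 36.1%, 29.2% and 34.7% in DoHH-2 and 38.4%, 26.7% and 34.8% in GM01953.

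The enrichment varied with the transcript's features, and pooled counts and the median gene (of those with at least 20 mRNA counts) did not always give the same order. By 5′ UTR length, the DoHH-2 fold over even spread decreased at each step, from 3.13 under 20 nt and 2.80 at 20 to 49 nt to 2.34, 2.02 and 1.60 at 200 nt or more. The median gene also decreased at each step there, from 2.83 to 1.22. In GM01953 the pooled values were 3.28, 3.05, 2.73, 2.91 and 2.56, while the median gene was at 1.40, 2.44, 2.49, 2.10 and 0.720, under its even spread in the longest class. A Kozak context, the purine at -3 and G at 4 that favour recognition of the codon, did not order the lines alike. In pooled counts, DoHH-2 windows with both bases were at 2.30-fold, with one at 2.15-fold and with neither at 2.07-fold. In GM01953 the order was reversed, at 2.61, 2.93 and 3.42. The median gene showed no such steps in DoHH-2 (1.93, 1.73 and 1.81) but kept the pooled order in GM01953 (1.54, 2.19 and 3.16). Windows with an upstream AUG were at 2.18-fold and those without at 2.22-fold in DoHH-2, and at 2.98-fold and 2.79-fold in GM01953, where the median gene ran the other way (1.16 and 1.81). In pooled counts, windows crossed by a splice junction were lower than the others in both lines (2.00 against 2.46, and 2.43 against 3.21), but the median gene in GM01953 was not (1.88 against 1.72). GC-rich windows (65% or more) had, pooled, 2.01-fold in DoHH-2 and 2.61-fold in GM01953, the lowest of the 3 GC classes in both.

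Among single genes, MIF, a small secreted cytokine, had the highest window count in both lines. It had 1116 of its 2743 mRNA counts there in DoHH-2 (40.7%, 38.9 to 42.5) and 267 of 467 in GM01953 (57.2%, 52.6 to 61.6), where the short mRNA of 557 nt would give 18.5% by even spread. Its counts were spread over 95 of 103 positions in DoHH-2, all of them sites, with no position above 41 counts. In GM01953 its highest positions were 10 (22 counts) and -22 (17 counts). PFN1 (86 positions) and ENO1 (73) were also spread widely in DoHH-2, while TUBB had 44 positions and TUBA1B 27.

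The glycolytic kinase PGK1 had 637 window counts in DoHH-2 (27.5% of its mRNA counts) and 80 in GM01953 (38.8%), against 2.14% by even spread. Of these, 544 and 79 lay before the codon, and offset -40 was the highest in both lines (48 and 23). ENO1, another glycolytic enzyme, had 493 and 60 window counts, mostly after the codon (327 and 38). The β-tubulin gene TUBB had 435 and 74, of which 390 and 60 lay before the codon. Its maxima within the window were at -50 (77 counts) in DoHH-2 and -39 (17 counts) in GM01953. Offset -50 is the edge of the window, so a higher position farther upstream would not be seen. TUBA1B, an α-tubulin, had 393 and 36 window counts, all of them before the codon. Reads from tubulin, PGK1, ENO1 and ribosomal protein genes may be shared with near-identical gene copies, and how such reads were assigned is not given in the sources used here.

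Ribosomal protein mRNAs with high window counts differed in which side held them. RPS23 had 516 window counts in DoHH-2, 510 of them after the codon, in a window that crosses a splice junction, and all of its 21 in GM01953 lay after it. RPS6 had 407, of which 276 lay before the codon, and all of its 23 in GM01953 did. Its highest offset, -39, was the same in both lines (49 and 8 counts), but in GM01953 it was tied with -36 (8 counts). Offset -39 is the third base of the annotated mRNA shown above. RPS25 had 367 and 25 window counts on both sides (163 before and 204 after in DoHH-2, 11 and 14 in GM01953), with -41 the highest in both (47 and 7). Over the list of 79 cytosolic ribosomal proteins, 73 of the 78 genes with mRNA counts had a window count in DoHH-2. Among all genes, 7553 of the 10615 with mRNA counts had one. Together the listed genes held 9577 counts, 9.51% of all window counts. The list's fold over even spread was 2.05 in DoHH-2 and 1.71 in GM01953, below the 2.22 and 2.80 of all genes. An even spread along these short mRNAs would place 11.8% and 12.1% of their counts in the window. Only 28.8% of their DoHH-2 window counts, and 31.6% of those in GM01953, lay before the codon. Many of these mRNAs have short 5′ UTRs, and an even spread within their windows would place 43.0% and 43.2% there.

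**Figure D3:**
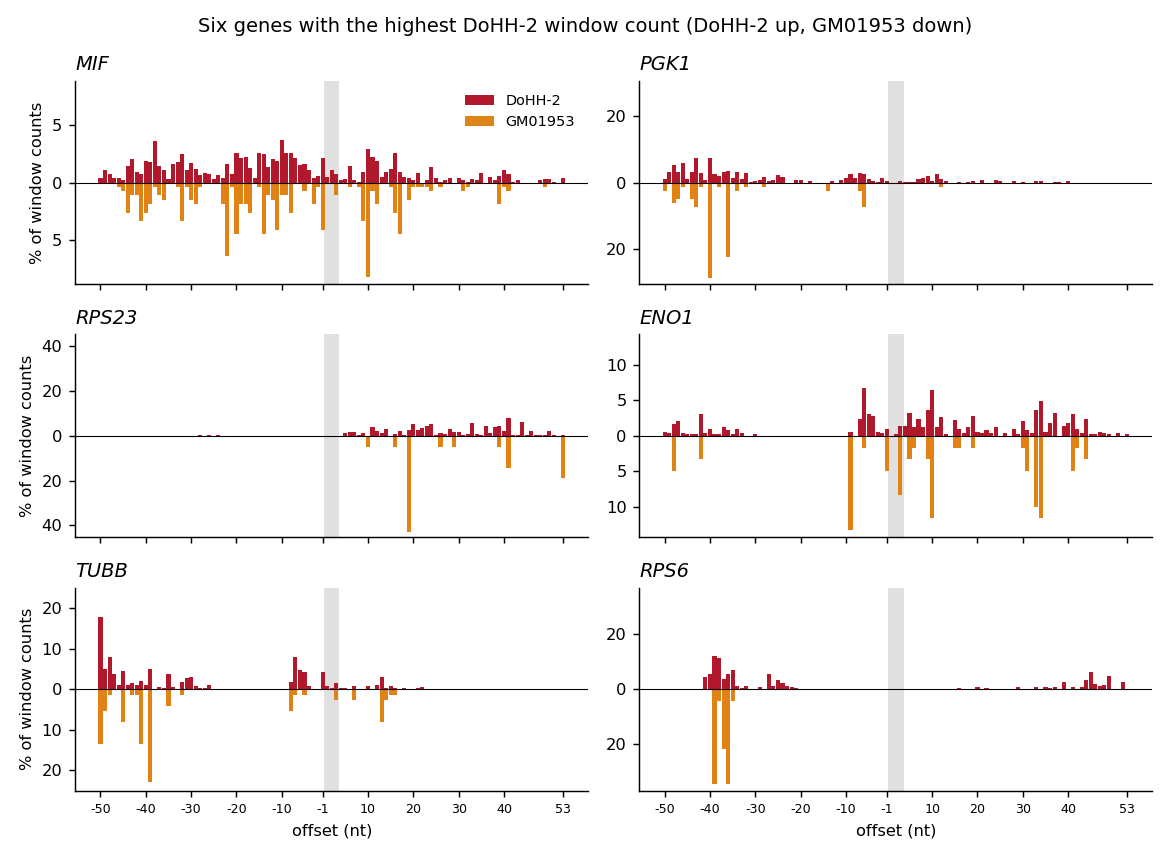
Share of each gene's window counts (y axis, %) at each offset (x axis, nt) for the 6 genes with the highest DoHH-2 window counts, with DoHH-2 upward, GM01953 downward and the codon shaded; scales differ between genes. MIF is spread over the window, PGK1 and TUBB lie mainly before the codon, and RPS23 after it (510 of 516 counts in DoHH-2).

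Genes of the translation machinery itself varied. Initiation factors as a list were at 2.69-fold in DoHH-2 and 2.46-fold in GM01953, the latter under the 2.80 of all genes. Of their measured genes 26 of 36 (72.2%) and 7 of 11 (63.6%) were above 1, near the 69.5% and 61.1% of all genes. The named members of eIF3, the factor that links the small subunit to the mRNA-bound complex, were named for their high share or count. EIF3F had 82 of 107 mRNA counts in the window in DoHH-2 (76.6%, 67.8 to 83.6), the highest share of any gene with 100 counts, and 8 of 9 in GM01953. EIF3E had 120 of 275 and 11 of 15, and EIF3K 202 of 366 and 6 of 27 (22.2%, 10.6 to 40.8, against 13.3% by even spread). EIF4B, which encodes the immunoprecipitated protein, had 1 of 129 mRNA counts in the window in DoHH-2 (0.775%, 0.137 to 4.26) and 0 of 11 in GM01953, which allows up to 25.9%. Elongation factors were at 0.993-fold in DoHH-2, with EEF2 at 64 of 2717 counts (0.722-fold) and 1.45-fold without it, and at 1.80-fold in GM01953, where 22 window counts were available.

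Antigen presentation had the highest fold of the 15 lists in DoHH-2 (3.80) and was at 4.13-fold in GM01953, with medians of 2.99 and 3.57 per gene. The hnRNP list was at 2.24-fold and 4.13-fold, but its median gene was at 1.52 and 1.103, and HNRNPC (40) and HNRNPA2B1 (35) gave most of its 145 window counts in GM01953. Of the measured antigen presentation genes, 14 of 15 and 8 of 10 were above 1, where all genes had 69.5% and 61.1%. CD74 had 318 of 945 mRNA counts in the window in DoHH-2 and 102 of 333 in GM01953. Of these, 278 and 96 lay after the codon. HLA-DRA, an MHC class II chain, had 217 of 723 and 65 of 201, with 18 counts each at 34 and 36 in DoHH-2 and its maximum at 36 in GM01953. B2M, the MHC class I light chain, had 51 of 255 and 71 of 228.

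Glycolytic enzymes were at 2.95-fold and 3.52-fold. Without PGK1 they were at 2.30-fold in DoHH-2, near the 2.22 of all genes, and at 2.53-fold in GM01953, under the 2.80 of all genes. Of the measured glycolytic genes, 14 of 16 in DoHH-2 and 10 of 11 in GM01953 were above 1, beside 69.5% and 61.1% of all genes. Respiratory chain subunits were at 2.39-fold and 2.60-fold, the GM01953 fold being under that of all genes. Of their measured genes, 25 of 27 and 14 of 17 were above 1, beside the same shares of all genes. NDUFA11, of complex I, had 296 of 452 counts in the window in DoHH-2 (65.5%) and 26 of 31 in GM01953. Proteasome subunits (2.80 and 3.67) and SR splicing factors (2.91 and 3.25) were above all genes in both lines, the latter list not so in GM01953 without SRSF2 (2.59). The fold of the actin cytoskeleton list was lower (1.47 and 1.64). ACTB had a window share under its even spread in DoHH-2 (4.63%, 4.14 to 5.17, against 5.68%) and above it in GM01953 (8.03%, 6.54 to 9.82). PFN1 had nearly the same share in both (20.2% and 20.2%, from 389 and 113 counts) and its maximum at 19 in both.

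The mRNAs known for upstream open reading frames were at 1.05-fold in DoHH-2, with 4 of 11 measured genes above 1 (all genes 69.5%) and a median gene at 0.796. ATF5 held 234 of their 278 window counts, and without it the list was at 0.663-fold. High mobility group proteins were at 1.01-fold, with 3 of 7 above 1 (all genes 69.5%), and at 1.36-fold without HMGB2. The GM01953 values of these lists, 1.97 and 2.27, rest on 20 and 46 window counts. ATF5, whose translation is controlled by upstream open reading frames, had 234 of 3848 counts in the window in DoHH-2 (6.08%, 5.37 to 6.88, against 5.13%). CDK4, a cell cycle kinase, had 65 of 442 counts in the window in DoHH-2 (14.7%, 11.7 to 18.3, 2.66-fold) and 4 of 33 in GM01953. Cyclins and cell cycle kinases as a list were at 1.87-fold and 2.46-fold, the latter from 33 counts. Only 11 of 20 and 2 of 5 of their measured genes were above 1, beside 69.5% and 61.1% of all genes. The median gene of the list was at 1.21 and 0.791. Heat shock and ER chaperones were at 1.96-fold and 3.38-fold, and B-cell receptor and surface genes at 1.86-fold and 3.81-fold, with 3.15-fold in DoHH-2 without CXCR4. GAPDH had 152 of 1180 and 16 of 159, and UPF1 13 of 177 and 0 of 15.

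Between the lines, 2605 transcripts had window counts in both, 88.6% of the GM01953 set and 34.5% of the DoHH-2 set. Of the 10 highest genes of each line, 5 were shared: MIF, PGK1, ENO1, TUBB and PFN1. Of the GM01953 window positions, 42.3% were also cross-linked in DoHH-2, beside 33.2% of its other mRNA positions. These shares were not adjusted for the density of DoHH-2 positions. In genes with at least 20 mRNA counts that density was 68.5 per kb in the windows and between 15.6 and 47.5 in the other regions. In 59 genes with at least 20 window counts in both lines, the highest position was identical in 11 and within 3 nt in 19, and the median distance was 10.0 nt. The identical ones included PGK1, RPS6 (in GM01953 by a tie with another offset), RPS25 and PFN1. The share of mRNA counts in the window was higher in GM01953 in 52 of the 59, but a minimum of 20 window counts in the shallower table selects genes with a high share there.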

How the data were processed

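iCLIP of eIF4B was carried out by the authors, who merged replicates of low read number, which left 4 for DoHH-2 and 2 for GM01953. PCR duplicates were removed, reads were aligned to GRCh38 with HISAT2 (in the submitters' processing notes), and cross-link sites and peaks were called with the iCount suite. Their versions are not given in the sources used here. The deposited tables pool the replicates and hold, per position and strand, whole-number counts of cDNAs. They also hold an FDR, a p-value adjusted by the authors' peak calling, which was used as deposited.

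Counts were placed on GENCODE release 44 MANE Select transcripts. Positions were read as counted from 0, since the base composition around positions on the 2 strands then differed by 0.186 in DoHH-2 (2.02 if counted from 1) and 0.287 in GM01953 (2.53). Shares have Wilson and counts exact Poisson 95% intervals. Total counts were 2033156 and 167197. The context calculation was tested on simulated data. Python 3.11.15, numpy 2.4.6, pandas 2.3.3, scipy 1.17.1 and matplotlib 3.10.9 were used.

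Genes named are the 10 highest window counts and the 5 highest window shares (at least 100 mRNA counts) per line, the 2 highest DoHH-2 members of each of 15 lists, and EIF4B, CDK4, ACTB, GAPDH and UPF1. MANF and SRSF2 were chosen after their counts at -1 were seen. Some sequences are not reported here. The members and lists were chosen with earlier results of these data known. Alternatives counted each position once, kept FDR sites, left out the 10 highest genes, used the longest coding transcript, counted positions from 1 or weighted genes equally. Leaving out the highest member of each list was added after the data were seen.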

Additional observations from a re-analysis of the deposited data

How the results depend on the processing

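The offset -1 stayed the highest in both lines under every alternative but positions counted from 1, which moved it to -2 in both. That reading also gave, for DoHH-2 and GM01953, 48.4% and 46.1% of window counts before the codon, 34.6% and 35.4% at U, and 32.0% and 29.4% on the first codon base. Counting each position once gave window shares of mRNA counts of 7.21% and 13.1%, 25.7% at U in DoHH-2, and 36.5% and 38.8% on the first codon base. FDR sites alone gave a window share of 13.7% in DoHH-2, with 30.7% and 31.0% at U. Without the 10 highest genes the window shares were 9.03% and 12.1%, with 48.5% before the codon in DoHH-2. The longest coding transcript gave 9.05% and 12.4%. With genes weighted equally the window shares were 8.99% and 12.2%, with 49.5% and 49.95% before the codon, and in DoHH-2 27.3% at U and 37.4% on the first codon base. The other 33 values moved by less than their counting interval. Among the 47 named genes, the longest coding transcript moved 10 window counts of 94 (CFL1 and HSP90AA1 to 0 in both lines), and FDR sites alone moved 16. No paired analysis was possible because the tables pool the replicates, and leaving out single replicates could not be run for the same reason. Depth limits GM01953 most, where the lowest offset rests on 14 counts.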
